A study of Mus musculus with 12 samples.

Results

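The genes described here code for the scaffold proteins of the excitatory postsynaptic density, 2 subunits of the kinase CaMKII, and neurogranin. They were taken by symbol from the table of gene counts. Of its 43629 genes, 9 were members: Nrgn, Camk2a, Camk2b, Dlg4, Dlgap1, Dlgap3, Shank1, Shank2 and Shank3. Poly(A) RNA was sequenced from mouse cortical neuronal cultures, 6 labelled IFNG (treatment IFNy) and 6 labelled Control. Lasting exposure to interferon-gamma came from a lentivirus that carries Ifng, given at day 7 in vitro, with harvest 10 days afterwards. The protocol text is the same for all 12 samples, so what the Control cultures were transduced with, if anything, is not stated, nor are strain, age or the number of cultures or animals behind a group. All p-values here rest on the spread among the 12 samples, and that spread may be technical.

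The postsynaptic density is the protein layer beneath the membrane of an excitatory synapse. PSD-95, the product of Dlg4, holds glutamate receptors there. The SAPAP proteins of the Dlgap genes tie PSD-95 to the Shank proteins, which in turn reach Homer proteins and the actin cytoskeleton. Calcium that enters through NMDA receptors binds calmodulin, and calcium-loaded calmodulin switches on CaMKII, a kinase needed for long-term potentiation. Neurogranin binds calmodulin at low calcium and so sets how much of it is within reach of CaMKII.

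All 9 genes had enough counts to be tested, and 5 fell in the IFNG libraries: Nrgn, Dlgap1, Shank2, Camk2b and Dlg4. None rose. Over all 15241 genes tested, 9.79% were called lower and 14.3% higher. The median log2 fold change was -0.28 over the 9 genes and -0.02 over all genes tested. Nrgn changed most, to 0.473 of its Control level, whereas the fold changes of the other 4 that fell lay between 0.656 for Dlgap1 and 0.829 for Dlg4. Camk2a, Dlgap3, Shank1 and Shank3 did not pass. Log2 fold changes are IFNG over Control with their standard error (SE), and every adjusted p-value, except those of ratios, is from the quasi-likelihood test of edgeR, adjusted by Benjamini-Hochberg over all tested genes.

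Library totals ran from 13875435 to 34239380 counts. Ifng itself lay between 4.98 and 17.9 CPM (counts scaled to library size) in IFNG libraries, and its highest count in a Control library was 3. Neurons were present in both groups, since the 24 pan-neuronal markers summed to 12640 to 14318 CPM in IFNG and 14610 to 16254 CPM in Control libraries. All 24 were tested and 10 of them fell (list median -0.25 on the log2 scale), where 9.79% of all genes tested were lower. All 16 tested astrocyte markers of 18 rose, where 14.3% of all genes tested were higher. The summed level of the 18 ran from 6240 to 10001 CPM in IFNG libraries against 3620 to 4093 CPM in Control libraries. Microglial markers summed to 15.1 to 23.4 CPM in IFNG and 9.21 to 17.9 CPM in Control libraries; 3 of 14 could be tested, P2ry12 rose, and Tmem119 had at most 3 counts in any library. The part of astrocytes in the results below was not tested, and in bulk RNA fewer neurons and less RNA per neuron cannot be told apart. Control 4 was the lowest Control library for 8 of the 9 genes and Control 6 the highest for 7, while IFNG 5 was the lowest IFNG library for 4. With Control 4 and IFNG 5 both left out, an alternative chosen after seeing the data, 6 of the 9 genes fell, the same 5 and Shank3, where 9.3% of all genes tested were called lower.

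**Figure D1:**
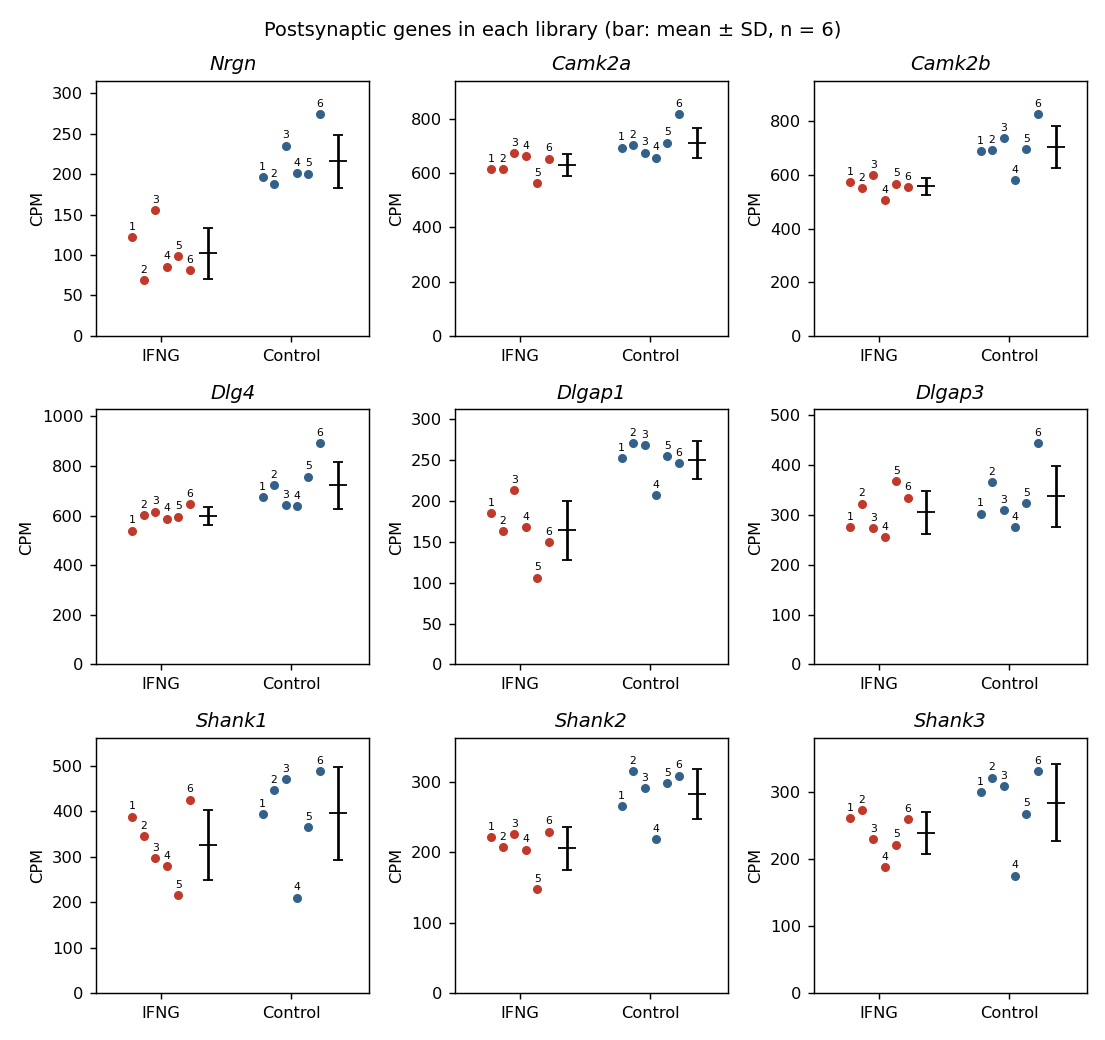
CPM of each of the 9 genes (y axis, from 0) in the 6 IFNG and 6 Control libraries; each point is 1 library with its replicate number, and the bar beside it is the mean ± SD (n = 6). The 2 groups do not overlap for Nrgn, and Control 4 lies at or near the bottom of the Control group in most panels.

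Nrgn (ENSMUSG00000053310, GRCm38 chromosome 9, 37544492 to 37552904, minus strand) was the member with the largest difference. It stood at 69.2 CPM in the lowest, 92.1 in the median and 156 in the highest IFNG library, against 188, 201 and 274 CPM in the Control libraries. Every IFNG library lay below every Control library, which held for 4.09% of all tested genes in this direction. IFNG libraries averaged 102 ± 31.7 CPM and Control libraries 216 ± 32.8 CPM (SD, n = 6 each). Nrgn fell by 1.08 on the log2 scale (SE 0.16, adjusted p = 3.29e-05). Nrgn was also the member whose IFNG libraries spread most, with a coefficient of variation of 31.1% in IFNG against 15.2% in Control libraries. IFNG 3 was the highest and IFNG 2 the lowest of that spread. Leaving out single libraries gave log2 fold changes between -1.24 and -0.98, and Nrgn fell in all 12 of these fits.

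The stretches of DNA upstream of Nrgn and Dlgap1 are shown because these are the members that fell by most. Both come from RefSeq promoter windows (GRCm38.p6), end at the base before the outermost start in RefSeq or GENCODE, and are written in the direction of transcription with CG dinucleotides in capitals. The Nrgn stretch (chr9:37552905-37552995, minus strand) holds 4 CG dinucleotides in 91 bases, and the Dlgap1 stretch (chr17:69968823-69969072, plus strand) holds 9 in 250 bases.
Nrgn: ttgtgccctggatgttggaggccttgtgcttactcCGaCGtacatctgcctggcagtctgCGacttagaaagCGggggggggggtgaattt
Dlgap1: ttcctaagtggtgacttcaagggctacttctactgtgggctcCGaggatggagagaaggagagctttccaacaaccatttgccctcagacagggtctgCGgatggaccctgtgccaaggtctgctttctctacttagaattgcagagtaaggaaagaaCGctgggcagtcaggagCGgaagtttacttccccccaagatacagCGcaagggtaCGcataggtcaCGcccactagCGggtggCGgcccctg

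RefSeq windows of 300 bases, running from 250 bases before a start to 50 bases after it, were at hand for 6 of the 9 genes, with 9 starts in all. They belong to Nrgn, Camk2b, Dlg4, Dlgap1, Dlgap3 and Shank3. CG dinucleotides numbered 51 in the Camk2b window, 40 in that of Shank3, 17 in that of Nrgn and 2 in that of Dlgap3. They numbered 5, 12 and 16 in the windows of Dlg4, and 15 and 7 in those of Dlgap1. The median over all 32851 windows was 7. Of the 17 in the Nrgn window, 4 lie before the outermost annotated start. The windows were searched on both strands, counting any overlap with another match, for the GAS motif TTCNNNGAA bound by STAT factors, the core of the interferon-stimulated response element (ISRE), the cyclic AMP element TGACGTCA and the TATA box TATAAA. None of the 9 windows held any of these motifs. Of all windows, 8.3% held the GAS letters, 3.44% the ISRE core, 1.79% the cyclic AMP element and 13.6% the TATA box.

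The CaMKII subunits differed in their calls. Camk2b (ENSMUSG00000057897, chromosome 11, 5969644 to 6066362, minus strand) codes for the beta subunit, which also binds actin filaments. Its lowest, median and highest values were 505, 561 and 600 CPM in IFNG libraries, against 580, 694.5 and 826 CPM in Control libraries. Control 4, at 580 CPM, was the one Control library that reached into the IFNG range. Camk2b fell by 0.33 on the log2 scale (SE 0.087, adjusted p = 0.00791), and it fell in all 12 fits that left out a library.

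Camk2a (ENSMUSG00000024617, chromosome 18, 60925618 to 60988152, plus strand) codes for the alpha subunit, which predominates in forebrain excitatory neurons. Its lowest, median and highest values were 564, 635 and 675 CPM in IFNG libraries, against 657, 700 and 817 CPM in Control libraries. IFNG 3 and IFNG 4 lay above Control 4, and below the other Control libraries. The log2 fold change was -0.17 ± 0.081 (adjusted p = 0.138), with a 95% interval for this gene alone of -0.34 to -0.002, so Camk2a did not pass.

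Dlg4 (ENSMUSG00000020886, chromosome 11, 70016942 to 70047522, plus strand), the gene of PSD-95, was the weakest of the calls. Its lowest, median and highest values were 539, 599 and 647 CPM in IFNG libraries, against 638, 698 and 894 CPM in Control libraries. The groups overlapped narrowly, with IFNG 6 above Control 3 and Control 4. Dlg4 fell by 0.27 on the log2 scale (SE 0.091, adjusted p = 0.0359). It passed in 6 of the 12 fits that left out a library and not without IFNG 1, IFNG 2, IFNG 4, Control 2, Control 5 or Control 6. Without Control 6, the highest library, its log2 fold change was -0.19 (adjusted p = 0.124).

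Of the SAPAP genes, which code for the link between PSD-95 and Shank, 1 of 2 fell. Dlgap1 (ENSMUSG00000003279, chromosome 17, 69969073 to 70821413, plus strand) had lowest, median and highest values of 106, 165.5 and 213.5 CPM in IFNG libraries, against 207, 254 and 271 CPM in Control libraries. The single crossing was IFNG 3 at 213.5 CPM above Control 4 at 207 CPM. Dlgap1 fell by 0.61 on the log2 scale (SE 0.13, adjusted p = 0.00129). IFNG 5 was the lowest library, and without it the log2 fold change was -0.50.

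Dlgap3 (ENSMUSG00000042388, chromosome 4, 127169204 to 127237022, plus strand) had lowest, median and highest values of 256, 298 and 367 CPM in IFNG libraries, against 275, 317 and 444 CPM in Control libraries. Its groups overlapped over most of their range, and IFNG 5, the lowest IFNG library for Dlgap1, was the highest for Dlgap3. The log2 fold change was -0.14 ± 0.12 (adjusted p = 0.406; 95% interval -0.39 to 0.10).

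The Shank genes code for the deep scaffold that binds SAPAP and Homer proteins. Shank2 (ENSMUSG00000037541, chromosome 7, 144001928 to 144424494, plus strand) had lowest, median and highest values of 147, 214 and 229 CPM in IFNG libraries, against 218, 294 and 315 CPM in Control libraries. Control 4, at 218 CPM, was the only Control library within the IFNG range, and IFNG 5 lay far below the other IFNG libraries. Shank2 fell by 0.46 on the log2 scale (SE 0.11, adjusted p = 0.00483), and by 0.37 without IFNG 5 (adjusted p = 0.00576).

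Shank3 (ENSMUSG00000022623, chromosome 15, 89499623 to 89560261, plus strand) had lowest, median and highest values of 189, 245 and 274 CPM in IFNG libraries, against 176, 305 and 332 CPM in Control libraries. The lowest of all 12 values was that of Control 4. The log2 fold change was -0.25 ± 0.13 (adjusted p = 0.182), and without Control 4 it was -0.35 (adjusted p = 0.0159). Shank3 passed in only that 1 of the 12 fits that left out a library, and without Control 6 it stood at -0.19 (adjusted p = 0.3585).

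Shank1 (ENSMUSG00000038738, chromosome 7, 44310253 to 44360572, plus strand) had lowest, median and highest values of 215, 321 and 426 CPM in IFNG libraries, against 210, 420 and 488 CPM in Control libraries. Control 4 was again the lowest of all 12, and no IFNG library lay below the whole Control range. The log2 fold change was -0.28 ± 0.18 (adjusted p = 0.266), and without Control 4 it was -0.40 (adjusted p = 0.0459). That was the only 1 of the 12 fits leaving out a library in which Shank1 passed, and without IFNG 5 it stood at -0.18 (adjusted p = 0.475). The strand setting of the counting is not given in the sources used here. On the opposite strand, 1700008O03Rik shares 339 exonic bases with Shank1 and had 2.39% of its counts, and Gm15609 shares 271 bases with Shank3 and had 0.206% of its counts, so reads of those stretches are uncertain.

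**Figure D2:**
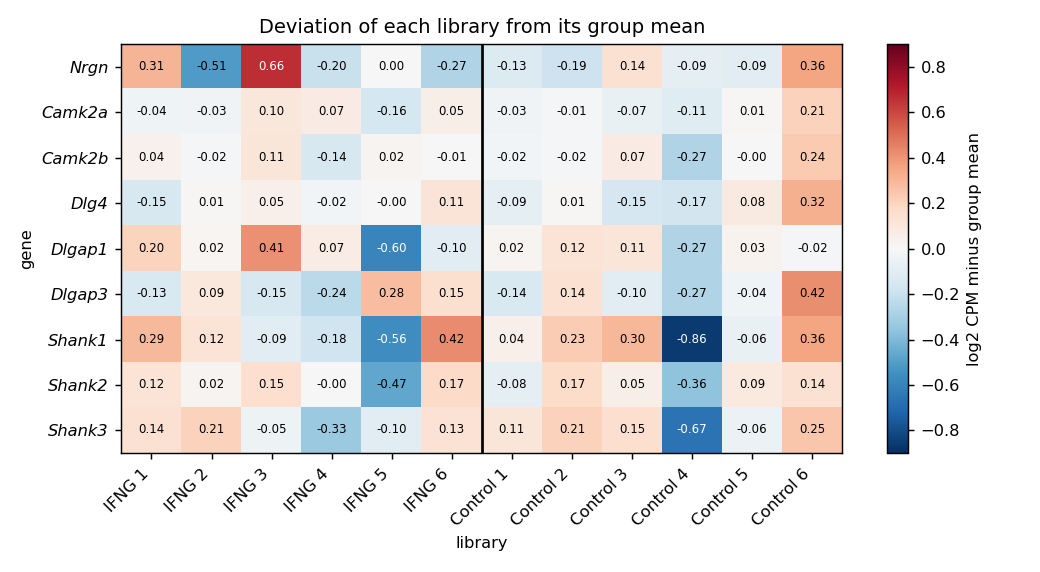
Log2 CPM of each gene (rows) minus the mean of its group, in each library (columns, IFNG left of the line and Control right of it); red is above and blue below the group mean. Control 4 is blue in every row, down to -0.86 for Shank1, and IFNG 5 is blue for Dlgap1, Shank1 and Shank2 but red for Dlgap3.

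The 9 genes varied partly together within the groups. After subtracting the group means, Pearson's r over the 12 libraries was above 0 for 34 of the 36 pairs of members, with a median of 0.44. It was highest for Shank1 with Shank3, at 0.88, and lowest for Dlgap1 with Dlgap3, at -0.37. These values are descriptions, since the genes of a library share its depth and scaling. For Nrgn, r was 0.57 with Camk2b and 0.39 with Dlgap1, and between -0.03 and 0.19 with Dlg4, Dlgap3 and the Shank genes. Among 10440 other genes that averaged 3 or more in log2 CPM, those most like the average of the members over these 12 libraries were Cdc42bpb, Mast1, Rhobtb2, Rab11fip4 and Kif5a, with r between 0.92 and 0.95. Their Spearman's rho lay between 0.83 and 0.965, and without the 2 libraries farthest from the median r lay between 0.76 and 0.91. The genes were picked by r over these same libraries, so none of these values is separate support for the likeness. Of these 5, Mast1 and Rab11fip4 fell, by 0.31 and 0.27 on the log2 scale (adjusted p = 0.0267 and 0.0419), and the other 3 did not pass.

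Levels were compared between members as CPM per kilobase (kb) of exonic length, taken over all annotated exons of a gene, so that genes with long, rarely used exons read low. In IFNG libraries Camk2a stood first at 84.6 ± 5.52 and Nrgn second at 70.3 ± 21.9 CPM per kb, whereas in Control libraries Nrgn stood first at 148.5 ± 22.6 and Camk2a second at 95.2 ± 7.51 CPM per kb (SD, n = 6 each). Nrgn was above Camk2a in all 6 Control libraries, and Camk2a was above Nrgn in 4 of 6 IFNG libraries, with overlapping ranges. Nrgn, Dlgap3 and Camk2b were close in IFNG libraries, where each was above the next in 3 or 4 of 6. Below them the order was shared by both groups: Dlg4, Shank1, Shank3, Shank2 and Dlgap1. Dlgap1 was lowest, at 9.17 ± 2.01 in IFNG and 13.97 ± 1.30 CPM per kb in Control libraries (SD, n = 6 each).

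Ratios within a family do not depend on how libraries are scaled and were compared for 5 pairs of members. The log2 ratio of Camk2a to Camk2b, per kb, averaged 0.47 ± 0.13 in IFNG and 0.31 ± 0.097 in Control libraries (SD, n = 6 each), a difference of 0.16. The two-sided exact permutation p was 0.0433, or 0.1245 adjusted over the 5 ratios. The log2 ratio of Dlgap1 to Dlgap3 averaged -2.90 ± 0.52 in IFNG and -2.40 ± 0.23 in Control libraries, a difference of -0.49 (exact permutation p = 0.0498, adjusted 0.1245). The 3 ratios among Shank genes differed by -0.23 to 0.20 (exact permutation p = 0.106 to 0.801, adjusted 0.177 to 0.801). No ratio passed after adjustment, so unequal change within a family was not shown. With Control 4 and IFNG 5 both left out, an alternative chosen after seeing the data, the Camk2a to Camk2b difference was 0.23 (exact permutation, adjusted p = 0.0397). IFNG 5 held the lowest IFNG ratio (0.28) and Control 4 the highest Control ratio (0.47), so leaving them out had to widen the difference. The Camk2a to Camk2b ratio did not pass in any of the 12 comparisons that left out a single library.

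**Figure D3:**
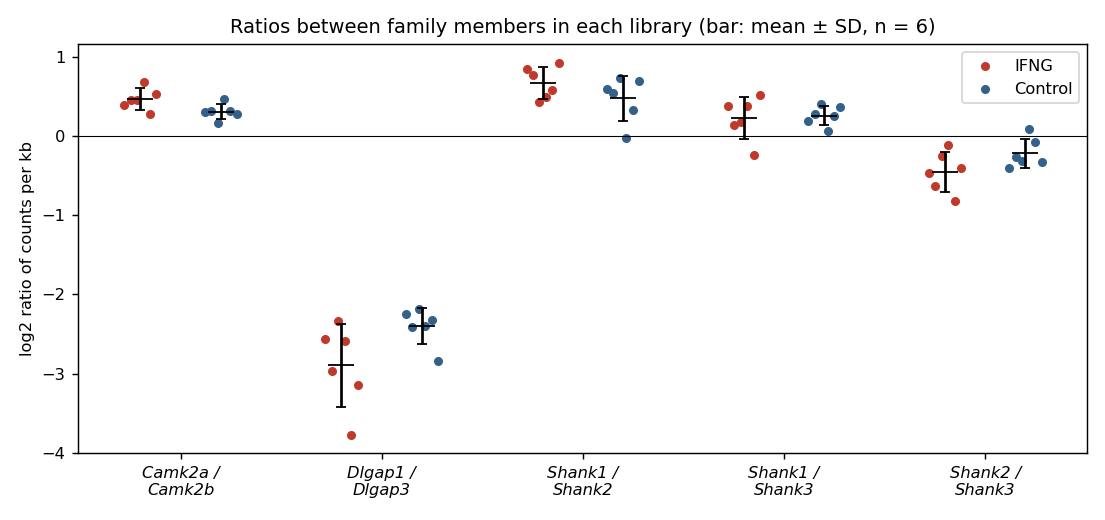
Log2 ratio of counts per kb between family members (y axis) for 5 pairs of genes; each point is 1 library, IFNG left of Control in each pair, with the mean ± SD (n = 6). The Camk2a to Camk2b ratio is on average 0.16 higher and the Dlgap1 to Dlgap3 ratio 0.49 lower in IFNG libraries, and the groups overlap in all 5.

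The number of members that fell depended on the scaling of the libraries. When libraries were scaled to their summed counts of the 24 pan-neuronal genes, 2 of the 9 members fell, Nrgn and Dlgap1, where 3.14% of all genes tested were called lower and 24.3% higher. Nrgn then fell by 0.89 (SE 0.15) and Dlgap1 by 0.43 (SE 0.12) on the log2 scale (adjusted p = 0.000102 and 0.00997). Shank2 stood at -0.28 ± 0.10 (adjusted p = 0.0514), Camk2b at -0.14 ± 0.090 and Dlg4 at -0.08 ± 0.091 (adjusted p = 0.254 and 0.548). Camk2a and Dlgap3 turned to 0.01 ± 0.081 and 0.05 ± 0.12 (adjusted p = 0.919 and 0.805). Under this scaling the median over all genes shifted by 0.19, to 0.17, and 88.6% of its calls were higher, against 59.4% with the usual scaling. Totals computed without the genes that rose gave 3 members lower where 4.92% of all genes were, and a test against a fold of 1.2 gave 2 where 3.01% were. Pan-neuronal scaling without Control 4 and IFNG 5 gave 3 where 3.13% were, and the replicate number as a term in the fit gave 5 where 10.3% were. Slc17a7, the vesicular glutamate transporter gene of excitatory neurons, stood at 0.05 ± 0.11 (adjusted p = 0.799) with the usual scaling, and of 12 excitatory neuron markers 4 fell and 2 rose, where 9.79% of all genes were lower and 14.3% higher. Scaled to pan-neuronal genes 2 fell and 4 rose, where 3.14% of all genes were lower and 24.3% higher. Of 12 markers of GABAergic neurons 4 fell and 1 rose with the usual scaling, and Calb2 fell by 1.30 on the log2 scale (adjusted p = 2.26e-05).

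**Figure D4:**
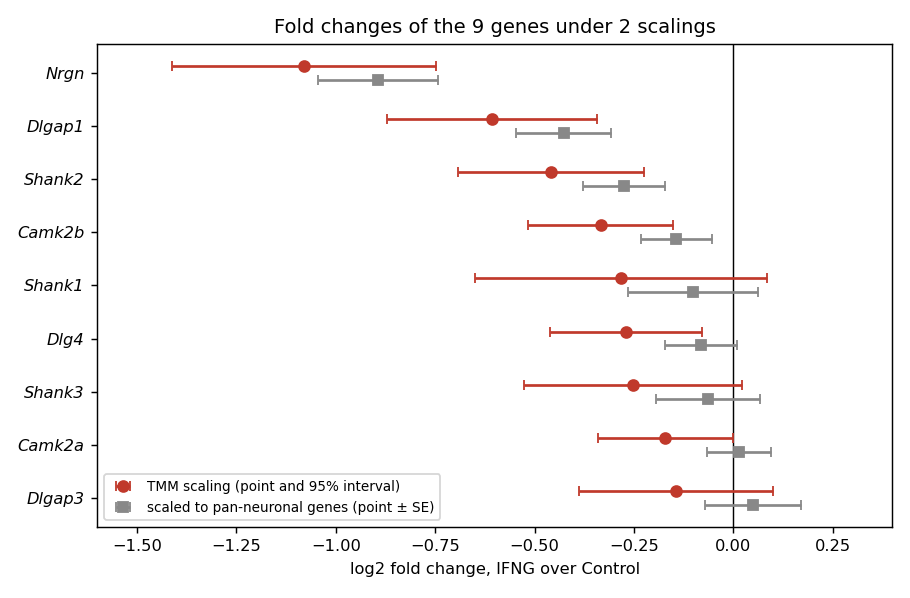
Log2 fold change of IFNG over Control (x axis) for each gene, ordered from the largest fall at the top. Red points with 95% intervals use TMM scaling and grey squares with ± SE use scaling to pan-neuronal genes; Nrgn and Dlgap1 stay farthest below 0 under both, at -0.89 and -0.43 in grey.

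Among other scaffold genes of the postsynaptic density more fell than rose. Of 28 further scaffold and adaptor genes 11 fell and Tanc1 rose, and the list median was -0.26 on the log2 scale. Scaled to pan-neuronal genes, 5 of them fell and 4 rose. Over all genes tested 9.79% were lower and 14.3% higher with the usual scaling, and 3.14% lower and 24.3% higher with the pan-neuronal one. Homer1, whose product links Shank proteins to metabotropic glutamate receptors, averaged 94.4 ± 27.3 CPM in IFNG libraries and 162.5 ± 20.3 CPM in those of the Control group (SD, n = 6 each) and fell by 0.78 on the log2 scale (adjusted p = 0.00088). Grip1, which binds AMPA receptors, and Dlgap2, another SAPAP gene, fell by 0.55 and 0.65 (adjusted p = 0.0001805 and 0.00136). Agap2 was the most abundant gene that did not pass, at -0.26 ± 0.10 (adjusted p = 0.0759). Among the relatives of Dlg4, Dlg2 fell by 0.70 and Dlg1 by 0.42 (adjusted p = 0.00498 and 0.0273), while Dlg3 stood at -0.19 ± 0.089 (adjusted p = 0.138); the Dlg genes and Tanc1 are named after their values were seen.

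Of the genes of calmodulin, proteins that bind it, its kinases and the phosphatase calcineurin, 12 of 16 fell and none rose, with a median of -0.34, where 9.79% of all genes tested were lower and 14.3% higher. Calm2 and Calm3, which code for calmodulin, fell by 0.44 and 0.36 (adjusted p = 0.00837 and 0.00517). Camkk2, a kinase that activates other CaM kinases, and Camk2n2, an inhibitor of CaMKII, fell by 0.65 each (adjusted p = 2.93e-05 and 3.81e-05). The remaining CaMKII subunit genes did not pass, with Camk2d at -0.04 ± 0.098 and Camk2g at -0.10 ± 0.081 (adjusted p = 0.815 and 0.386). Calm2, Calm3 and Camk2g are named after their values were seen. Scaled to pan-neuronal genes, 3 of the 16 fell and none rose, beside 3.14% lower and 24.3% higher over all genes.

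At the membrane, of 16 postsynaptic adhesion genes 3 fell and 1 rose, with a median of -0.08, and scaled to pan-neuronal genes 1 fell and 3 rose. These counts stand beside 9.79% lower and 14.3% higher over all genes with the usual scaling, and 3.14% lower and 24.3% higher with the pan-neuronal one, which raises the fold changes of all genes. Lrrtm3 and Slitrk5 fell by 0.70 and 0.23 (adjusted p = 0.000246 and 0.0410), and Ephb2, a receptor for ephrin-B ligands, rose by 0.73 ± 0.11 (adjusted p = 5.17e-05). Nlgn2 stood at 0.01 ± 0.11 (adjusted p = 0.967). Of 11 glutamate receptor and auxiliary genes 3 fell and none rose: Gria2, Cacng2 and Cacng3, by 0.38, 0.34 and 0.45 (adjusted p = 0.01715, 0.0128 and 0.00538). Gria1 stood at 0.22 ± 0.085 (adjusted p = 0.0617). Of 8 genes of inhibitory postsynapses 2 fell and none rose, with a list median of -0.21, and Lhfpl4 stood at -0.14 ± 0.097 (adjusted p = 0.328). Scaled to pan-neuronal genes, 1 glutamate receptor gene rose and none fell, and 1 inhibitory gene fell and none rose, beside the same shares over all genes.

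**Figure D5:**
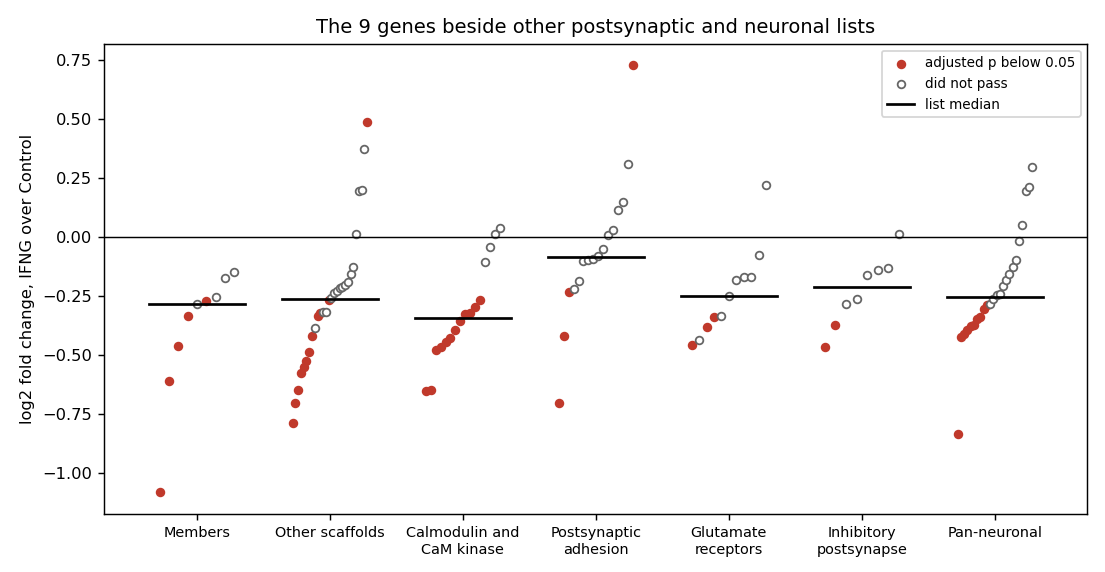
Log2 fold change of IFNG over Control (y axis) for the tested genes of the members and 6 other lists (x axis; markers of excitatory and GABAergic neurons and of glia are not drawn); filled red points passed the test at adjusted p 0.05, open points did not, and the line is the list median. The median is -0.28 for the 9 members, -0.34 for the calmodulin and CaM kinase genes and -0.25 for the pan-neuronal genes, and Nrgn is the lowest of the points drawn.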

How the data were processed

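The authors deposited raw counts per Ensembl gene, whole numbers with no normalization, for 12 libraries. Per the submitters' processing notes, STAR 2.4 and DESeq2 were used and the builds GRCm39 and mm10 are named, with no role given. Read counter, strand setting and annotation are not stated there. Symbols, coordinates and exonic lengths came from the GENCODE annotation of GRCm38, which matched 42462 of 43629 identifiers and may not be the one used for counting. The groups were compared by edgeR 4.0.16 under R 4.3.3, using TMM scaling, filterByExpr and two-sided quasi-likelihood F-tests without a block, at an adjusted p of 0.05. SE is the absolute log2 fold change over the square root of F. CPM uses TMM-scaled totals, and log2 CPM a prior count of 2. The test was checked on simulated data. It recovered 51% of 100 genes changed by a fold of 1.5 and 82% of 100 changed by a fold of 2, and 11 of 144 calls were false. A gene that did not pass may therefore still have changed. Replicates within a group differed by more than sampling noise (chi-square of at least 7.40 per gene). All members are named, with up to 3 genes of smallest p that passed and the most abundant that did not from each list. For marker lists of cell types only genes a result needed are named. Some genes that this rule names are not reported here. The members and lists were chosen with earlier results of these data known. Alternatives were other scalings, filters and tools (DESeq2 1.42.0, limma 3.58.1), the replicate number as a block, and leaving libraries out.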

Additional observations from a re-analysis of the deposited data

Results flagged for a closer look

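Among 30 sets of 6 values (9 genes and 5 ratios in each group, and the mean of the members), 3 held a library far from the others, with a gap to the nearest library that exceeded Dixon's critical value; chance gives this in about 1 in 20 sets. Shank2 was at 147 CPM in IFNG 5, below 203 CPM in the next IFNG library. Camk2a was at 817 CPM in Control 6, above 713 CPM in the next Control library. The log2 ratio of Dlgap1 to Dlgap3 was -2.84 in Control 6, the lowest of the Control libraries. No cause was tested for any of them.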

How the results depend on the processing

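Nrgn and Dlgap1 fell under all 24 alternatives. Leaving out single libraries gave 1924 to 2332 genes higher, 1047 to 1699 lower and 4 to 7 members lower. It gave log2 fold changes of -0.19 to -0.11 for Camk2a, -0.37 to -0.27 for Camk2b, -0.30 to -0.19 for Dlg4, -0.20 to -0.04 for Dlgap3, -0.40 to -0.18 for Shank1, -0.51 to -0.37 for Shank2 and -0.35 to -0.19 for Shank3. Adhesion genes called numbered 2 to 4, with 2 without IFNG 2, IFNG 4, IFNG 6, Control 1, Control 2 or Control 3. Genes of inhibitory postsynapses called numbered 1 to 3, with 1 without IFNG 2, IFNG 6, Control 5 or Control 6. Counts for these lists take both directions, and 19.3% to 26.1% of all genes tested were called either way in these fits. The Shank1 to Shank3 ratio differed by -0.093 to 0.0588, above 0 only without IFNG 5.

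Scaled to pan-neuronal genes, 3709 genes were higher and 478 lower. Totals without the genes that rose gave 750 lower, and a test against a fold of 1.2 gave 458. Members that fell numbered 2 with pan-neuronal scaling, 3 without the risen genes and 2 against a fold of 1.2, where Camk2b, Dlg4 and Shank2 did not pass (-0.33, -0.27 and -0.46). Without the risen genes Camk2b (-0.22) and Dlg4 (-0.16) did not pass, nor did Dlg4 with no filter (-0.25). With pan-neuronal scaling Camk2b was at -0.14, Dlg4 at -0.082, Shank2 at -0.28, Camk2a at 0.0146 and Dlgap3 at 0.0491. Calls in the calmodulin list were 3 with that scaling and 3 against a fold of 1.2, where 5 scaffold, 2 adhesion, 0 glutamate receptor and 0 inhibitory genes were called. With pan-neuronal scaling 1 glutamate receptor gene rose and 1 inhibitory gene fell. Without the risen genes 1 inhibitory gene was called, and with no filter 2 adhesion genes were. Of all genes tested, 27.5% were called either way with pan-neuronal scaling and 12.8% against a fold of 1.2. The shares were 24.3% without the risen genes and 12.6% with no filter.

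Without Control 4 and IFNG 5, chosen after seeing the data, Shank3 (-0.32) and the Camk2a to Camk2b ratio (0.23) passed, 5 glutamate receptor genes were called, and the Shank1 to Shank3 ratio turned to 0.0194. Adding pan-neuronal scaling to this gave 3624 genes higher, 477 lower and 3 members lower. Camk2b was then at -0.21, Dlg4 at -0.13 and Camk2a at 0.0116, with 4 calmodulin, 1 glutamate receptor and 0 inhibitory genes called. List calls here take both directions. Over all genes tested 26.9% were called either way in this setting, and 23.8% without the added pan-neuronal scaling. The cause of these shifts was not tested.

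Whether the replicate number pairs the samples is not known. Deviations of same-numbered libraries from their group means correlated at -0.001 to 0.124, which is weak but cannot exclude pairing. IFNG 6 and Control 6 were each the closest match of the other, which held for no other replicate number. With the replicate number as a block, 2114 genes were higher and 1563 lower, 5 members fell, and no call among the members changed.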
